A study of Mus musculus with 18 samples.

Results

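Untreated GL261 gliomas were compared with untreated Lewis lung carcinomas (LLC) over all 23284 gene symbols of the deposited table for this pair of tumors. The comparison rests on 4 of the 18 tumor RNA pools of the series, 2 pools for GL261 and 2 for LLC. GL261 is a mouse glioma cell line and LLC a mouse lung carcinoma cell line, and both grow in C57BL/6 (B6) mice because they arose in that strain. For each line, cells expanded in culture were injected under the skin of the posterior flank of male C57BL/BNTac mice (Taconic), labelled 12 weeks old. None of these mice had received cyclophosphamide or another drug. RNA was extracted from each tumor singly and then pooled, 9 and 10 tumors for the GL261 pools and 5 and 5 tumors for the LLC pools. Poly-A selected, strand-specific libraries were sequenced from each pool. Untreated B16F10 melanomas from the same kind of host, again 2 pools of 5 tumors, are given beside them. Each tumor type stands for a single cell line at a site that is neither brain nor lung, and the RNA comes from whole tumors, so tumor cells and the blood vessels, connective tissue and immune cells of the host are measured together.

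The study asked why GL261 and LLC tumors differ in their response to repeated cyclophosphamide, and the untreated tumors give the state from which each starts. Gliomas carry the transcription programs of glial cells, in which OLIG and SOX factors set the oligodendrocyte lineage and a matrix of lecticans and hyaluronan surrounds the cells. Carcinomas keep, to varying degree, the keratins, junctions and basement membranes of epithelia. In both, interferons secreted by immune cells induce antiviral proteins, immunity-related GTPases and the machinery that presents peptides on MHC class I and class II molecules to T cells.

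The pools held 7335271 and 6169217 reads over genes for GL261, 15148583 and 6989888 for LLC, and 10963900 and 8350176 for B16F10. Values below are normalized reads, that is reads per gene scaled to a common library size (trimmed mean of M values), with the pool of more reads first in each pair, since the tables do not say which pool is which. Pools of a tumor lay close together: the median absolute log2 difference per gene was 0.118 for GL261 and 0.116 for LLC, and 1.45% and 3.05% of genes differed by more than 2-fold between the pools. Each pool is labelled as a number of individual tumors, and whether a mouse gave more than 1 tumor is not stated in the sources used here. The p-values thus rest on the spread between pools, with n = 2 for each tumor, drawn for each gene toward a trend over all genes. Spread between single tumors was not measured. In whole tumors, fewer cells of a type and less RNA per cell cannot be told apart.

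Of the 13199 genes with enough reads to test, 2344 (17.8%) were higher and 1653 (12.5%) lower in GL261 than in LLC at a fold change over 2 and an adjusted p under 0.001 (limma on log2(normalized reads + 1), Benjamini-Hochberg adjustment). For all 3997 of these genes (30.3%) the GL261 and LLC pools did not overlap, which the thresholds nearly ensure with 2 pools a tumor. The fold change exceeded 16 for 910 of them. A further count shows how far the tumors differ in kind: 198 of the genes higher in GL261 had 0 reads in both LLC pools, and 26 of those lower had 0 reads in both GL261 pools. With a GL261 pool left out, 1350 (without the deeper) or 1391 (without the shallower) genes were higher, since the filter asks for reads in 2 libraries and a gene read only in GL261 then falls out; of the genes still tested, 95.9% and 96.5% were called again. The median log2 fold change over all genes tested was 0.01. In the text, log2 fold changes are GL261 minus LLC with their standard error (SE), and a gene is called higher or lower only past these thresholds. Every count of list members called is to be read beside the 17.8% higher and 12.5% lower over all genes tested. Members nearly absent from a tumor could pass the filter only by their reads in the other. Among the members tested this favors calls toward the tumor where they are read.

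**Figure D1:**
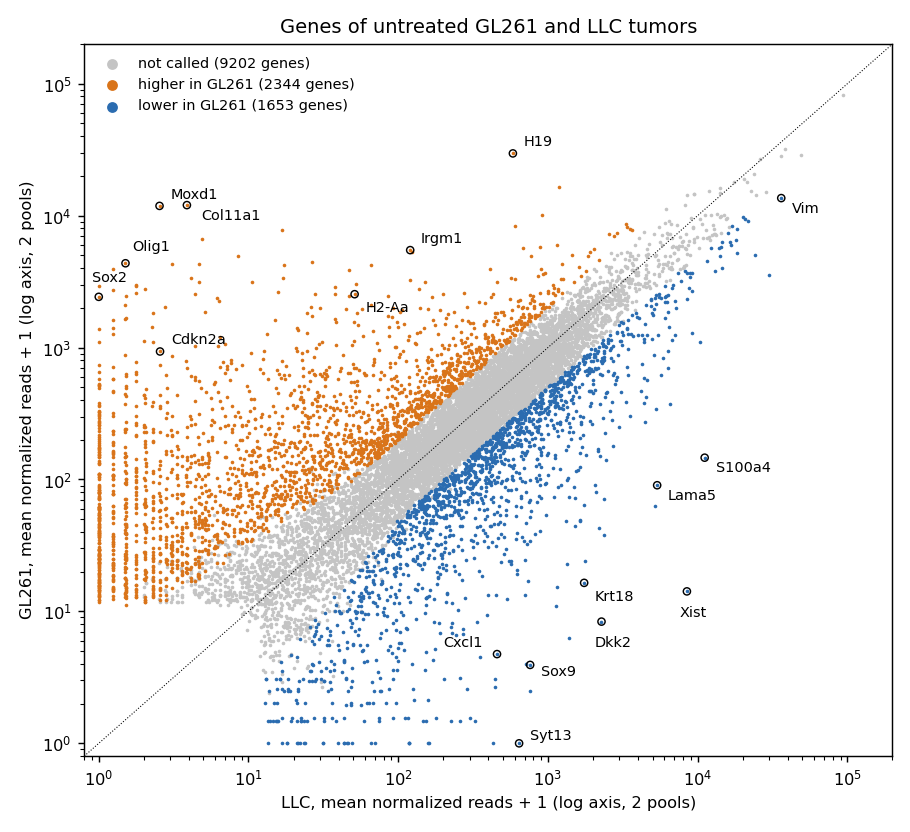
Mean normalized reads of every tested gene in the LLC pools (horizontal axis) and the GL261 pools (vertical axis), each plus 1 on a log axis, n = 2 pools a tumor. Genes called higher in GL261 are orange, genes called lower are blue and genes not called are gray; the named genes at the far left (Sox2, Olig1, Col11a1) and at the bottom right (Xist, Dkk2, S100a4) are listed at very different levels in the tumors.

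Oligodendrocyte lineage factors were among the largest differences toward GL261. Olig1, a helix-loop-helix factor of oligodendrocyte precursors, stood at 4212 and 4492 normalized reads in the GL261 pools and 1.02 and 0 in the LLC pools. Its ratio of group means was 6320.1 (95% counting interval 1749 to 52196). For its partner Olig2 the values were 3019.7 and 2815 against 0.508 and 1.06, likewise present in both GL261 pools and nearly absent from LLC. Sox2, the neural stem cell factor, had 2506 and 2339 normalized reads in the GL261 pools and 0 in the LLC pools, which places it at least 2358-fold higher in GL261 (against 3 reads over the LLC pools). Sox10, which drives oligodendrocyte and Schwann cell genes, was found at 4357 and 4297 against 1.02 and 6.35, and unlike OLIG factors it was also present in B16F10 (3885 and 4166). Sox6 followed the same pattern with 2821 and 2714 against 1.02 and 1.06. So did Sox8 with 292 and 345 against 0.508 and 0. Myt1, a zinc finger factor of oligodendrocyte precursors and neurons, had 623 and 645 against 0.508 and 1.06. Sall3, Pou3f2 and Pou3f3 had 0 reads in both LLC pools and were at least 315-, 372- and 311-fold higher in GL261. The exception was Sox9, a factor of astrocytes and of cartilage, which had 4.74 and 1.12 normalized reads in the GL261 pools and 819 and 700.3 in the LLC pools and a log2 fold change of -7.76 ± 0.42. Of the 19 glial transcription factors tested, 14 were higher and 1 lower in GL261, against 17.8% and 12.5% of all genes, with a median log2 fold change of 8.02. Another 8 of the 27 listed genes had too few reads to test. Members nearly absent from LLC passed the filter only by their reads in GL261, which favors this share and median.

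Products of the oligodendrocyte lineage went the same way. Myelin genes were higher in GL261 for 16 of 19 tested members and lower for none, with a median log2 fold change of 6.53. Another 5 of the 24 listed genes had too few reads to test, and the limit of the filter holds here as well. Gjc3, a connexin of myelinating glia, had 8048 and 7608 normalized reads in the GL261 pools and 14.7 and 16.9 in the LLC pools. Bcas1, which marks oligodendrocytes that begin to myelinate, was at 3533 and 3169 against 2.03 and 4.23 (log2 fold change 9.71 ± 0.24, adjusted p = 6.1e-08). Gm98, an earlier symbol of the myelin regulatory factor Myrf, was at 1421 and 1444 against 2.54 and 0. Among genes of mature myelin, Mog was at 257 and 262 against 0 and Mag at 145 and 137 against 0.508 and 1.06, and both were called higher. Mbp, a myelin protein gene with transcripts in many other cells, was not called (685 and 680.4 against 598 and 598, log2 fold change 0.19 ± 0.06). In GL261 the mean normalized reads per kilobase of exon were 2005 for Olig1, 523 for Gpr17 and 153 for Mog. Mog is a single myelin gene, and Gjc3 and Bcas1 had more normalized reads than Gpr17. No order of precursor and myelin genes is drawn from these values.

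Markers of glia and neural precursors were higher in GL261 for 17 of 24 tested members and lower for 3. Gpr17, a receptor of committed oligodendrocyte precursors, was at 2860.4 and 2569.5 normalized reads in the GL261 pools and 0.508 and 0 in the LLC pools. Cspg4, the NG2 proteoglycan of these precursors and of pericytes, was at 2054 and 1903 against 31 and 27.5 (log2 fold change 6.03 ± 0.10). Slc1a3, a glial glutamate transporter, had 1071 and 999 against 3.56 and 3.17 and S100b had 598 and 536 against 2.54 and 4.23. The astrocyte filament gene Gfap was low throughout, at 19.9 and 26.9 against 0 and 1.06. Pdgfra, the growth factor receptor of oligodendrocyte precursors and of fibroblasts, had 1175 and 976 against 544 and 608, and its log2 fold change of 0.90 ± 0.10 did not pass the fold threshold. Nes, the intermediate filament of neural stem cells, was abundant in both tumors and not called (2626 and 2332 against 2751 and 2839, log2 fold change -0.18 ± 0.07). The 3 genes that were lower in GL261 are genes that many mesenchymal cells also carry. The connexin gene Gja1 had 584 and 545 against 4824 and 4301. The hyaluronan receptor Cd44 had 1519 and 1882 against 4057 and 3802. Vim, an intermediate filament, had 13286 and 13867 against 39470.1 and 32866. The 12 defining glial markers together summed to between 23831 and 25377 normalized reads in the GL261 pools and between 3337 and 3492 in the LLC pools, where Sox2 and Bcan were at 0.

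**Figure D2:**
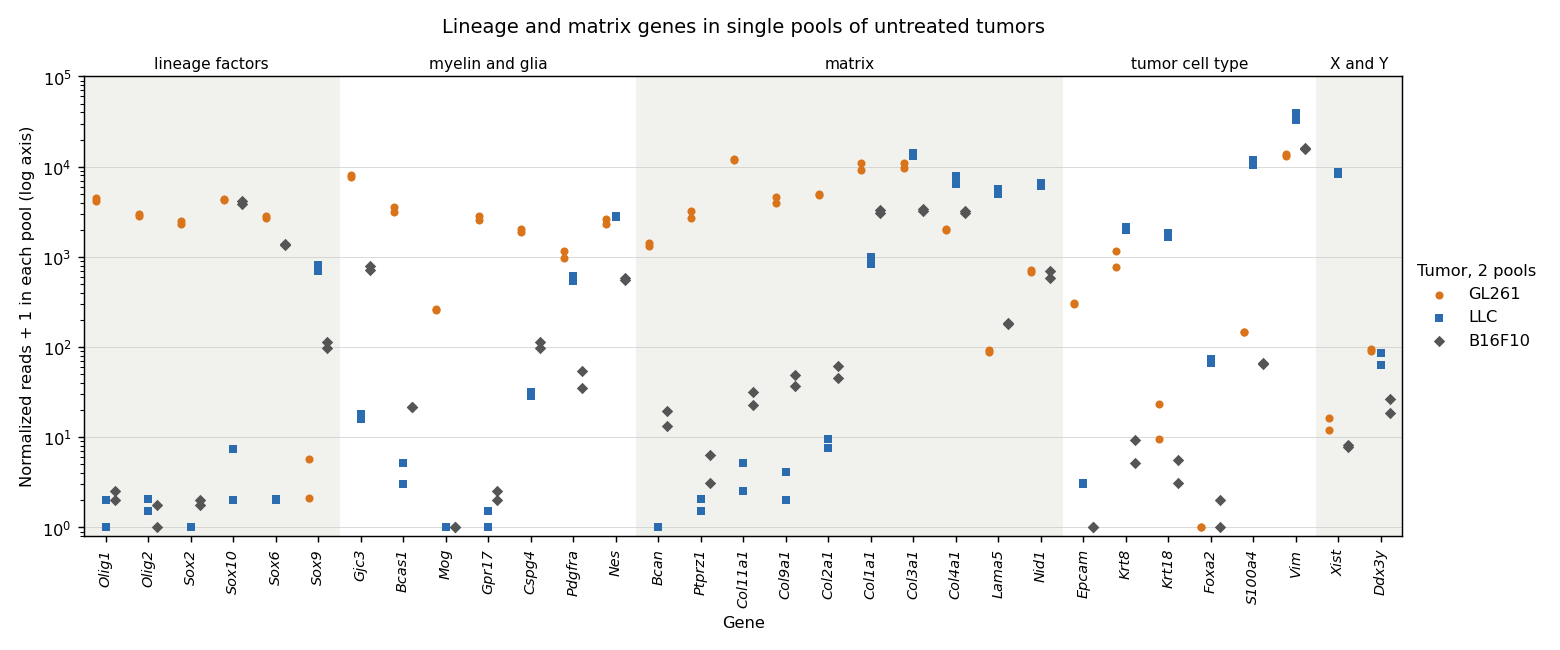
Normalized reads plus 1 (log axis) of lineage genes in each single pool of untreated GL261 (orange), LLC (blue) and B16F10 (gray), 2 points a tumor, with genes ordered by role. The pools of a tumor lie close together for most genes; Olig1, Olig2, Sox2 and Bcan reach 1307 or more normalized reads in GL261 and 1.06 at most in LLC, and Sox9, Krt18, S100a4 and Xist lie higher in LLC.

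Most neuronal genes tested were higher in GL261. Of 37 tested genes of the neuronal cytoskeleton, synapse and axon guidance, 23 were higher and 5 lower in GL261, with a median log2 fold change of 2.69. Adhesion molecules of axons and glia were among the higher ones. Cntn1 (contactin) had 1977 and 1349 normalized reads in the GL261 pools and 0 and 1.06 in the LLC pools. Chl1, a relative of L1CAM, had 2953 and 3288 against 8.64 and 10.6 (log2 fold change 8.20 ± 0.13). Ncam2 had 0 reads in LLC and was at least 241-fold higher. The tubulin Tubb2b was at 3442 and 3320.5 against 15.3 and 16.9 (7.63 ± 0.10), whereas Tubb3, the tubulin used to mark neurons, was at 349 and 436 against 189.7 and 226 and not called. The 5 genes lower in GL261 all encode guidance cues or their receptors. Nrp2, a receptor of semaphorins and VEGFs, had 283 and 320.1 against 3720.4 and 3319 (-3.54 ± 0.08). The netrin Ntn1 had 978 and 976 against 3411 and 3436 (-1.81 ± 0.05) and its receptor Unc5b 99.6 and 95.1 against 1434 and 1235 (-3.76 ± 0.09). Plxna4 and Sema5a were the other two. Other guidance genes were called higher, among them the Slit receptor Robo1 (24.7 and 29.1 against 5.59 and 3.17) and the netrin receptor Dcc (55 and 51.5 against 0).

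The extracellular matrix of the tumors differed in kind. Neural matrix genes were higher in GL261 for 11 of 14 tested members and lower for 1. Another 4 of the 18 listed genes had too few reads to test, and members nearly absent from LLC passed the filter only by their reads in GL261. Bcan (brevican, a lectican of brain matrix) had 1434 and 1307 normalized reads in the GL261 pools and 0 in the LLC pools and was at least 1336-fold higher. Ptprz1, a receptor phosphatase that carries chondroitin sulfate, was at 3259 and 2724 against 0.508 and 1.06, and Reln (reelin) was at 2041 and 3031 against 2.54 and 4.23 with a log2 fold change of 9.17 ± 0.25. The collagens of cartilage were among the largest differences of the whole table. Col11a1 had 11909 and 12114 normalized reads in the GL261 pools and 1.53 and 4.23 in the LLC pools, a log2 fold change of 11.69 ± 0.29. Col9a1 had 4572 and 3992 against 1.02 and 3.17, Col9a2 4053 and 3786 against 0.508 and 0 and Col2a1 4829.7 and 4990.2 against 6.61 and 8.46, so that chains of type II, IX and XI collagen were abundant in GL261 and near 0 in LLC. The fibril collagens of connective tissue gave smaller differences. Col1a1 was at 9249 and 10946 against 986 and 832 (log2 fold change 3.47 ± 0.11) and Col1a2 at 7723 and 8842 against 626 and 575. Col3a1 did not pass the threshold at 9776 and 10949.6 against 13094 and 14032. In all, 21 of 35 collagen genes were higher and 3 lower in GL261.

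Several genes of basement membranes and other matrix were higher in LLC. The 3 collagen chains lower in GL261 were Col4a1, Col4a2 and Col6a1, at log2 fold changes of -1.83 ± 0.10, -1.60 ± 0.09 and -1.54 ± 0.07. The type IV chains Col4a3 (37 and 23.5 against 0.508 and 0) and Col4a5 (339 and 291 against 2.03 and 5.29) were called higher in GL261. Lama5, the laminin alpha chain of most epithelial and vascular basement membranes, had 88.2 and 90.7 normalized reads in the GL261 pools and 5694 and 5032 in the LLC pools (log2 fold change -5.89 ± 0.08, adjusted p = 5.7e-09). Lamb1 was at 800.2 and 877 against 6232 and 5465, and Nid1, which links laminin to type IV collagen, at 677 and 713 against 6606 and 6158. The laminin chains Lama2 (48.4 and 38.1 against 8.14 and 9.52) and Lama4 (782 and 739 against 323 and 259) were called higher in GL261. Hspg2 (perlecan) and Fn1 (fibronectin) were called as well, at log2 fold changes of -1.61 ± 0.08 and -1.45 ± 0.09. Over the matrix list, 17 genes were higher and 14 lower of 41 tested. Those higher in GL261 included the fibrillin Fbn2 at 1945 and 2097 against 3.56 and 0. Postn (periostin) stood at 2962 and 3317 against 163 and 135. Lox, an oxidase that cross-links collagen, stood at 705 and 853 against 74.2 and 62.4. Fibroblast markers did not move as one group: the summed level of Col1a1, Dcn, Lum and Dpt was between 9857 and 11466 in GL261 and 2144 and 2213 in LLC, but 1 marker was called higher (Col1a1) and 2 lower (Lum, Dpt) in GL261, and their part in the collagen differences was not tested.

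Proteases and adhesion molecules differed in both directions. Of 38 protease and inhibitor genes, 19 were higher and 10 lower in GL261. The membrane-type metalloproteases Mmp15 (2028 and 1863 against 39.7 and 47.6), Mmp16 (762 and 668 against 0.508 and 0) and Mmp17 (564 and 544 against 0.508 and 1.06) were higher in GL261. Mmp14, of the same type, was higher in LLC (595 and 661 against 2204 and 2262). Serpina3n, a protease inhibitor of reactive astrocytes, had 3541 and 4215 normalized reads in the GL261 pools and 42.2 and 49.7 in the LLC pools, a log2 fold change of 6.37 ± 0.11. Timp2, a metalloprotease inhibitor, was lower in GL261 (559 and 623 against 4202 and 4519) and Timp3 higher (1404 and 1447 against 76.3 and 94.2). Among integrins, Itga4 was higher in GL261 (1663 and 1812 against 69.2 and 100.5, log2 fold change 4.36 ± 0.16). Itgb7, which pairs with it on lymphocytes, was higher in LLC (35.1 and 48.1 against 2260.1 and 2148, -5.71 ± 0.14). The laminin-binding chain Itga3 was likewise higher in LLC (32.2 and 62.7 against 1628 and 1654, -5.16 ± 0.26). The cadherins Cdh10 (519 and 402 against 0.508 and 0) and Cdh19 (653 and 596 against 0 and 1.06), known from neurons and glia, were found in GL261 and not in LLC.

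Defining genes of lung epithelium were at or near 0 in LLC. The surfactant gene Sftpc and the club cell gene Scgb1a1 had 0 reads in both LLC pools, and Sftpb had 1. Nkx2-1, the lineage factor of lung and thyroid, was at 2.84 and 2.24 against 10.2 and 11.6. None of the 4 had enough reads to be tested. The 10 defining markers of lung epithelium, which include keratins, summed to between 3701 and 4015 in LLC and between 1151 and 1558 in GL261. Krt8 and Krt18 gave nearly all of the sum in LLC. Of the 6 genes of a wider lung list that could be tested, none was higher and 2 were lower in GL261, Foxa2 and Hopx. Foxa2, a factor of foregut endoderm and lung epithelium, had 0 normalized reads in the GL261 pools and 65.1 and 71.9 in the LLC pools, and Hopx, known from alveolar type I cells, had 14.2 and 11.2 against 203 and 220.04 (log2 fold change -3.96 ± 0.20). Epithelial genes went both ways, with 6 higher and 4 lower in GL261 of 11 tested members. The 4 lower were Krt8, Krt18, Ocln and Pkp3. Krt18, a keratin of simple epithelia, had 8.53 and 22.4 normalized reads in the GL261 pools and 1819 and 1669 in the LLC pools (log2 fold change -6.87 ± 0.35) and its partner Krt8 had 780.3 and 1165 against 2158 and 1989, so Krt8 was present in both tumors. Ocln (occludin, a tight junction protein) was at 1.9 and 2.24 against 172 and 229.6 and Pkp3, a desmosome protein, at 30.3 and 38.1 against 110.3 and 110.02. The adhesion molecules Epcam (302 and 306 against 2.03 and 2.12) and Cdh1 (24.7 and 20.1 against 5.08 and 6.35), which define most carcinomas, were low in LLC and were called higher in GL261. The calls of Cdh1 and Krt8 were lost under some alternatives. Mesenchymal genes were lower in GL261 for 10 of 22 tested members and higher for 4. The largest was S100a4, a calcium-binding protein of motile cells, at 145 and 145 normalized reads in the GL261 pools and 11745 and 10532 in the LLC pools and a log2 fold change of -6.25 ± 0.07. Snai1, Twist1 and Twist2, repressors of epithelial genes, had log2 fold changes of -2.89 ± 0.29, -2.35 ± 0.12 and -6.13 ± 0.96, while Zeb1 differed by -0.04 ± 0.06 and was not called.

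The genes with the largest differences toward LLC came from several pathways. Syt13, a synaptotagmin, had 0 normalized reads in the GL261 pools and 577 and 705 in the LLC pools and was at least 402-fold lower in GL261. Dkk2, a secreted modulator of Wnt signaling, was at 11.4 and 3.36 against 2322 and 2234. Bnc1, a basonuclin of keratinocytes and germ cells, had 0 reads in GL261 and was at least 277-fold lower there. Slc38a4, an imprinted amino acid transporter, was at 2.84 and 7.83 against 1454 and 1318 and Acsl6, an acyl-CoA synthetase, at 0 and 3.36 against 464 and 416. Ion channel genes of sensory and other neurons were among them. The sodium channel Scn9a was at 0.948 and 0 against 313 and 334. Trpa1, a channel for irritants, was at 0 against 133 and 185, and the potassium channel Kcnh1 at 0 against 159.7 and 154. On the GL261 side the largest log2 fold change was that of Moxd1, a homolog of dopamine beta-hydroxylase (12.21 ± 0.18). It had 12134 and 11564 normalized reads in the GL261 pools and 2.03 and 1.06 in the LLC pools. The 1 added to each value holds down the fold change of genes at or near 0 in LLC, such as Col9a2 and Sox2. By the ratio of reads alone the order would differ. Ncald, a neuronal calcium sensor, was at 2709.7 and 2507 against 1.53 and 0.

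Of 5 sex-linked transcripts tested, Xist separated the tumors although all hosts were male, and 4 Y-linked genes were not called. Xist, the RNA that coats the inactive X chromosome of female cells, had 15.2 and 11.2 normalized reads in the GL261 pools and 8724 and 8226 in the LLC pools, a log2 fold change of -9.24 ± 0.13 (limma, adjusted p = 8.2e-09). B16F10 resembled GL261 at 6.88 and 7.26 normalized reads. Tsix, transcribed from the opposite strand, had 0 reads in GL261 and 8.14 and 20.1 normalized reads in LLC, and whether the counting used strand is not given in the sources used here, so reads of the pair may be shared. The Y-linked genes were low in all pools. Ddx3y had 90.1 and 95.1 against 63 and 85.7, Eif2s3y 53.1 and 57.1 against 31 and 45.5, Uty 31.3 and 32.5 against 16.8 and 29.6 and Kdm5d 22.8 and 30.2 against 22.9 and 19, and none of the 4 was called. Their sum was between 197.2 and 215 in GL261, 134 and 179.8 in LLC and 40.4 and 55.8 in B16F10.

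Genes of chromosome X were more often higher in GL261 than genes of other chromosomes. Of 456 X-linked genes tested, 41.9% were higher in GL261 and 4.39% lower, with a median log2 fold change of 0.85. Against B16F10 the median over X-linked genes was 0.94 for GL261 and -0.05 for LLC. The median was smaller where both tumors had at least 100 normalized reads on average: 0.55 over 232 X-linked genes, of which 78.9% were above 0, beside -0.11 over 7564 autosomal genes, of which 42.9% were above 0. It was above 0 along the chromosome: all 9 windows of 20 Mb with at least 20 genes had medians above 0, between 0.23 and 1.30. Medians of autosomes lay closer to 0. The median was 0.56 on chromosome 15, where 33.5% of genes were higher in GL261, and the 6 windows ranged from 0.15 to 1.41. On chromosome 17 it was -0.46 with windows from -0.63 to -0.42, and on chromosome 12 it was -0.41, with 22.6% of genes lower in GL261. Positions are those of the mm9 build, found by symbol for 97.7% of the genes tested, and no test was made of a chromosome.

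**Figure D3:**
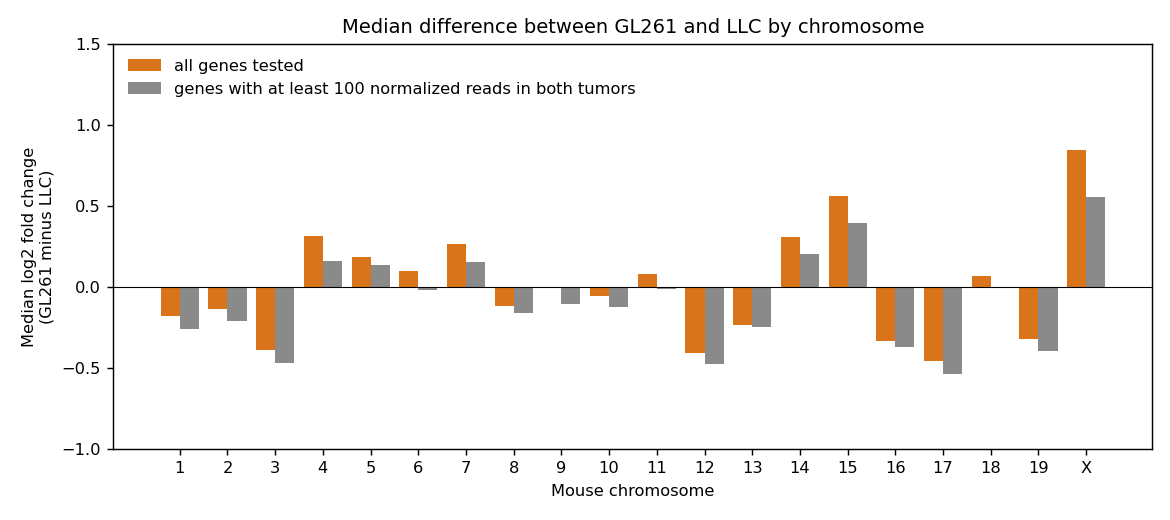
Median log2 fold change (GL261 minus LLC) of the tested genes on each mouse chromosome, with the bars starting at 0, for all genes tested (orange) and for genes with at least 100 normalized reads on average in both tumors (gray). Chromosome X has the highest median by either measure, 0.85 and 0.55, followed by chromosome 15, and chromosome 17 the lowest; no error bar is drawn because genes of a chromosome are not replicates.

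Interferon-induced genes were higher in GL261 as a block. Of the 20 immunity-related GTPases and linked interferon gamma genes tested, 19 were higher and none lower, with a median log2 fold change of 5.78. Irgm1, which directs autophagy of intracellular microbes, had 5842 and 5108 normalized reads in the GL261 pools and 106 and 132 in the LLC pools (log2 fold change 5.51 ± 0.11, adjusted p = 2.7e-08). Gbp2, a guanylate-binding protein, had 3611 and 2944 against 109.8 and 128, and Igtp had 3313 and 2703 against 51.4 and 50.8 with a log2 fold change of 5.85 ± 0.10. Gbp6 was at 1200.3 and 933 against 4.58 and 7.41, and Gbp10 and Gbp11 had 0 reads in LLC. Members of the GBP and IRG families are similar in sequence, so their reads may be shared. Irf1, a transcription factor that relays interferon gamma, was at 1819 and 1597 against 444 and 435 (log2 fold change 1.95 ± 0.07), and Socs1, the feedback inhibitor, was not called (149.8 and 131 against 91 and 107). Against B16F10, GL261 was higher for 20 of 20 genes, beside 20.2% of all genes, while LLC was higher for 3 and lower for 2.

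The 250 bases before the start site are shown for 6 interferon-responsive genes that were called higher in GL261. They are examples picked with no set rule. Capitals mark the repeat that interferon regulatory factors bind, GAAA, any 2 bases and GAAA again, on either strand (TTTC repeats are its reverse). All 6 hold the repeat, which many promoters of the broader interferon list do not, as counted below. Sequences are from RefSeq (GRCm38.p6) and run 5′ to 3′ on the strand of the gene. Coordinates are those of an exact match of each sequence in the mm9 genome.
Gbp2 (chr3:142283377-142283626, plus strand): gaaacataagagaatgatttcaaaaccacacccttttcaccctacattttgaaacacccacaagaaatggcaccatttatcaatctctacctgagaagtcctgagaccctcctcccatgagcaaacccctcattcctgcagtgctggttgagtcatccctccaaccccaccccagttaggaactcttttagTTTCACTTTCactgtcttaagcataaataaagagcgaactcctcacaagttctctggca
Isg15 (chr4:155574928-155575177, minus strand): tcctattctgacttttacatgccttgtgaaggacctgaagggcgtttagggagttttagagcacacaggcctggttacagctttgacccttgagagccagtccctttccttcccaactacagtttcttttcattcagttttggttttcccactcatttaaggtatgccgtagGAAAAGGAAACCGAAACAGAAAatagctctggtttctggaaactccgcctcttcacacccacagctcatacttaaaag
Cxcl10 (chr5:92777916-92778165, minus strand): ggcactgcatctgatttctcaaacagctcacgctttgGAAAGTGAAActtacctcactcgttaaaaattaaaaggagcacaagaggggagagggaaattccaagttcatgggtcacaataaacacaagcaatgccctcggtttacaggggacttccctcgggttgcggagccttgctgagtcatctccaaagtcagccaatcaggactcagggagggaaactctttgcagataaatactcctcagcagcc
Irgm1 (chr11:48684923-48685172, minus strand): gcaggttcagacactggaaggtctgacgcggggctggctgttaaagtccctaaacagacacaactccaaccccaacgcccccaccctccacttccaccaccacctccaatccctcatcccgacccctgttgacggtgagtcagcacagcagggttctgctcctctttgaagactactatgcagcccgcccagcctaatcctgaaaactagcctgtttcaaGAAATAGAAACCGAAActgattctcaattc
Igtp (chr11:58012808-58013057, plus strand): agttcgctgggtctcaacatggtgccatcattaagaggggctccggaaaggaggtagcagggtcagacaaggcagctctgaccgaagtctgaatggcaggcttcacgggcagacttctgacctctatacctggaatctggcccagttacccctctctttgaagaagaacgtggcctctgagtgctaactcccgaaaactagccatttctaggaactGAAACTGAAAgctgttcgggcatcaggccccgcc
Ifit1 (chr19:34715129-34715378, plus strand): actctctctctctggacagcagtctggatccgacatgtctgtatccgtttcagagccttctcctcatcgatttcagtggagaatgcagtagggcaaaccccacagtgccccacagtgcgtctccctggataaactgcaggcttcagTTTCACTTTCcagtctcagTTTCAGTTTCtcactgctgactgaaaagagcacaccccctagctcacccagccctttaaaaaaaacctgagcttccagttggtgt

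Promoter entries were found for 13 of the 21 GTPase genes in the table, and 11 of these hold the repeat. With under 80% of the genes matched, this count is void as a statement on the list. For the broader interferon list 12 of 30 promoters hold it (of 44 genes, likewise under 80%). Of all 27025 genes with a promoter entry, 3.46% (and 3.22% of the 9437 tested genes with an entry) hold the repeat in the same window. The closest repeat ends 14 bases before the start in Irgm1, 24 in Igtp, 49 in Gbp2, 56 in Isg15, 75 in Ifit1 and 203 in Cxcl10. In Isg15 the 3 matches overlap, as do the 2 in Irgm1, while the 2 in Ifit1 are separate. A match describes the sequence and is no evidence that a factor is bound there.

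Genes induced by type I interferons, many of which interferon gamma also induces, were higher in GL261 for 36 of 43 tested members and lower for 2, with a median log2 fold change of 3.04. Zbp1, a sensor of nucleic acids, had 508 and 507 normalized reads in the GL261 pools and 8.14 and 9.52 in the LLC pools (log2 fold change 5.70 ± 0.17). Oasl2, of the oligoadenylate synthetase family, had 1066 and 1026 against 45.3 and 50.8. Isg15, a ubiquitin-like modifier, was at 486 and 429 against 19.8 and 23.3 and Ifit1, which binds viral RNA caps, at 283 and 308 against 10.7 and 11.6. The 2 genes lower in GL261 were Ifitm1 (18 and 12.3 against 198.3 and 161) and Ifitm2 (509 and 490.2 against 1251 and 1256), membrane proteins that restrict virus entry, and Ifitm3 of the same family was not called (1735 and 1749 against 1621 and 1644). Ifng, the gene of interferon gamma, had too few reads to test, 10.4 and 5.6 against 0. The T cell markers, which moved with the interferon genes, are given below and their part was not tested. GL261 was called higher than B16F10 for 34 of 43 of these interferon genes, and LLC higher for 5 and lower for 9.

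Antigen presentation genes were also higher in GL261. Of 16 class I pathway genes, 10 were higher in GL261 and none lower. Nlrc5, the transactivator of class I genes, had 1958 and 1915 normalized reads in the GL261 pools and 105 and 106 in the LLC pools (log2 fold change 4.19 ± 0.07). Tap1, which pumps peptides into the endoplasmic reticulum, had 2051 and 1909 against 94.1 and 89.9 (4.41 ± 0.07). Psmb8, a subunit of the immunoproteasome, was at 1664 and 1485 against 84.4 and 109 (4.02 ± 0.13). The heavy chain H2-K1 was at 5151 and 4929.8 against 1460.3 and 1414 (1.81 ± 0.06), but H2-D1 (4042 and 4030.0 against 3412 and 3341) and the light chain B2m (7062 and 6573 against 4191 and 3906) did not pass the fold threshold. Class I genes share sequence, so reads may be split between H2-K1, H2-D1 and the nonclassical H2-Q and H2-T genes. Nonclassical class I, CD1 and NKG2D ligand genes had 9 higher members and 1 lower member of 17. Among them H2-T23 (Qa-1), a ligand of inhibitory receptors on killer cells, was at 1064 and 907 against 356 and 354 (1.46 ± 0.09). Mr1, which presents vitamin metabolites, was the lower one (37 and 30.2 against 120.00 and 83.6, -1.55 ± 0.23). For class II, 9 of 11 genes were higher and none lower, with a median log2 fold change of 4.96. H2-Aa had 2648 and 2424 normalized reads in the GL261 pools and 44.2 and 56.1 in the LLC pools and the invariant chain Cd74 had 5305 and 5242 against 99.7 and 146 (5.44 ± 0.15). Ciita, the class II transactivator, was at 338 and 269 against 3.56 and 8.46 (5.52 ± 0.35). Macrophages, dendritic cells and B cells also carry class II molecules. The macrophage markers Csf1r, Cd68, Emr1 and C1qa summed to between 2086 and 2268 in GL261 and 1839.6 and 2399 in LLC. Dendritic cell genes were higher in GL261 for 13 of 20 tested members and B cell genes for 3 of 5 tested members, with none lower in either list and 11 B cell genes too low to test. The part of these cells in the class II difference was not tested.

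**Figure D4:**
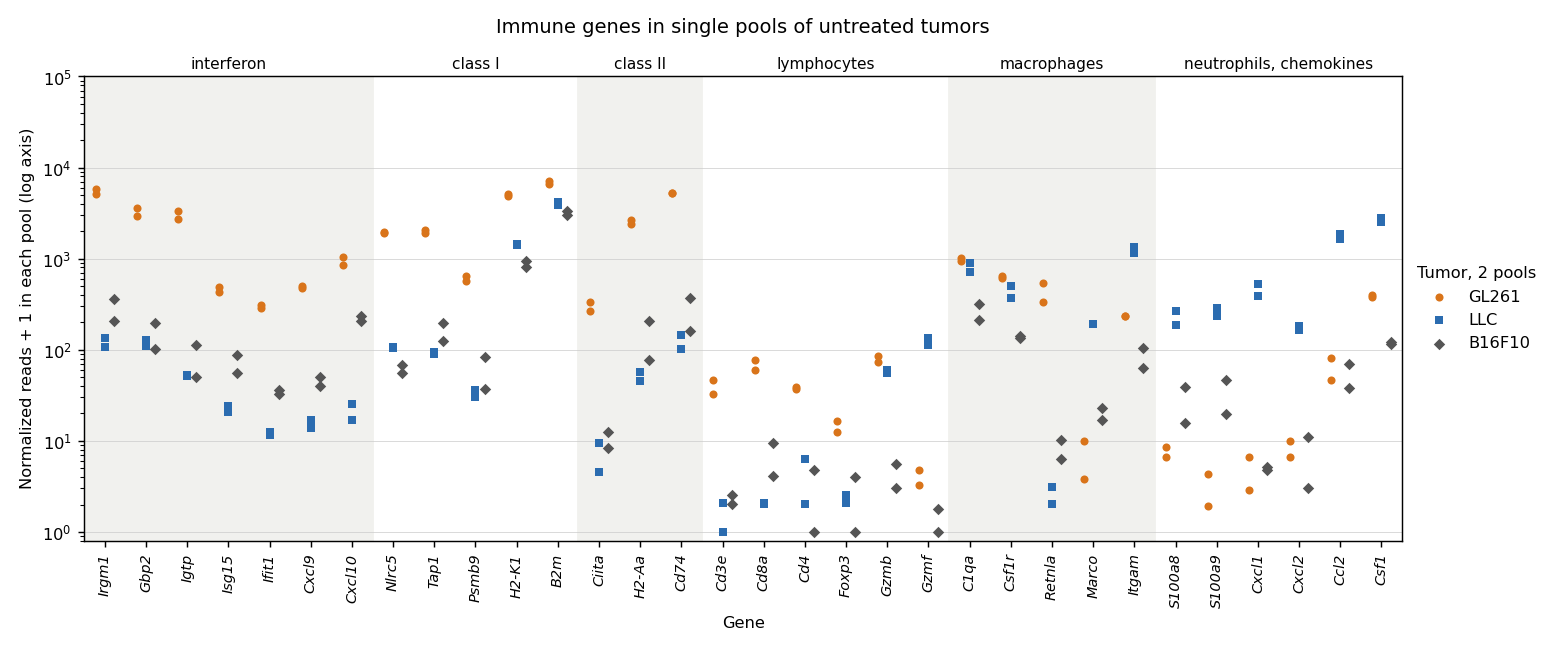
Normalized reads plus 1 (log axis) of interferon, antigen presentation, T cell and myeloid genes in each single pool of untreated GL261 (orange), LLC (blue) and B16F10 (gray), 2 points a tumor. The interferon, class I and class II genes sit highest in GL261, the macrophage genes divide between GL261 and LLC, and the neutrophil genes and chemokines at the right sit highest in LLC.

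T cell genes were higher in GL261 for 18 of 19 tested members, beside 17.8% of all genes tested, at low levels in both tumors. Another 9 of the 28 listed genes had too few reads to test. Members nearly absent from LLC could pass the filter only by their reads in GL261, which favors calls toward GL261 among those tested. Cd3e, a chain of the T cell receptor complex, had 31.3 and 45.9 normalized reads in the GL261 pools and 0 and 1.06 in the LLC pools, Cd8a 75.8 and 58.2 against 1.02 and 1.06 and Cd4 37.9 and 35.8 against 1.02 and 5.29. Summed over Cd3e, Cd3d, Cd8a and Cd4, the pools held between 165 and 169 normalized reads in GL261, 3.56 and 8.46 in LLC and 6.22 and 14.5 in B16F10. None of these markers was at 0 over both pools of a tumor. Foxp3, the factor of regulatory T cells, was at 11.4 and 15.7 against 1.53 and 1.06. The inhibitory receptor Pdcd1 (PD-1) was at 25.6 and 52.6 against 0 and 2.12 and Lag3 at 76.8 and 76.1 against 5.08 and 4.23, both called higher in GL261. Cd274, the PD-1 ligand PD-L1, was at 346 and 317 against 115 and 103 (log2 fold change 1.60 ± 0.11). Checkpoint and regulatory genes were higher for 9 of 20 and lower for 1, which was Tgfb1 (184 and 198.1 against 505 and 491).

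Cytotoxic effector genes were higher in GL261 for 7 of 20 tested members and lower for 5, beside 17.8% and 12.5% of all genes. The other 8 were not called, and 10 of the 30 listed genes had too few reads to test. The 7 higher in GL261 were Ccl5, Klrk1, Nkg7, Gzma, Klrd1, Klre1 and Il2rb. Ccl5, a chemokine of activated T cells, had 109.98 and 92.9 against 4.07 and 6.35. Klrk1, the NKG2D receptor, had 72.1 and 40.3 against 2.54 and 3.17, and the granzyme Gzma had 39.8 and 32.5 against 5.08 and 7.41. Gzmb, the main granzyme of killer cells, was not called at 85.3 and 72.7 against 59 and 55. The 5 genes higher in LLC were the granzymes Gzmc to Gzmg. Gzmf was at 3.79 and 2.24 against 133 and 111 (log2 fold change -4.96 ± 0.30), and Gzmd was at 6.64 and 1.12 against 97.6 and 82.5 (-4.50 ± 0.55). These genes lie side by side in a cluster and are near copies, so reads may be shared among them. Their 5 calls may thus not be separate. Perforin (Prf1) had 24.7 and 17.9 against 45.3 and 45.5 and was not called. The 3 natural killer markers Ncr1, Klrb1c and Prf1 summed to between 40.3 and 45.5 in GL261 and 49.3 and 55 in LLC. Dendritic cell genes were higher in GL261 for 13 of 20 and lower for none, among them Itgax (CD11c, 376 and 370.4 against 91.5 and 83.6) and the lineage factor Irf8 (629 and 555 against 154 and 167).

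Macrophage genes went both ways, and 24 of 45 tested members were not called. They were higher in GL261 for 8 (17.8%) and lower for 13 (28.9%), with a median log2 fold change of -0.05. Over all genes tested the shares were 17.8% and 12.5%, so only the share of lower members stood above that of all genes. The shared macrophage genes C1qa (943 and 1026 against 709.8 and 896) and Csf1r (637 and 614 against 372 and 496) were not called. The scavenger receptors Marco (2.84 and 8.95 against 189 and 190.4, log2 fold change -4.95 ± 0.42), Cd163 (47.4 and 39.2 against 224 and 306, -2.58 ± 0.19) and Msr1 (169 and 225 against 422 and 511, -1.25 ± 0.15) and the mannose receptor Mrc1 (657 and 612 against 1271 and 1691, -1.21 ± 0.12) were lower in GL261. The integrin Itgam (CD11b) was at 236 and 234 against 1152 and 1329 (-2.39 ± 0.08). The lysozyme gene Lyz2 was at 1425 and 1894 against 5501 and 6595 (-1.87 ± 0.14). Spp1 (osteopontin), secreted by macrophages and by tumor cells, was at 744 and 1131 against 6865 and 5725. Retnla, a marker of alternative activation, was higher in GL261 at 544 and 335 normalized reads in the GL261 pools and 1.02 and 2.12 in the LLC pools. The chemokine receptor Cx3cr1, of monocytes and microglia, was higher there as well (80.6 and 79.5 against 11.2 and 12.7). Gpnmb, which melanocytes also express, was at 16519.9 and 16475 against 1200.0 and 1159 (log2 fold change 3.80 ± 0.06) and reached 34362 and 33255 in B16F10.

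Neutrophil genes were higher in LLC for 7 of 11 tested members, with a median log2 fold change of -2.03. S100a8 had 7.58 and 5.6 normalized reads in the GL261 pools and 265 and 186 in the LLC pools and S100a9, its partner in calprotectin, 0.948 and 3.36 against 283 and 233 (log2 fold changes -4.89 ± 0.26 and -6.47 ± 0.39). The defining markers S100a8, S100a9 and Cxcr2 summed to between 49.3 and 54.8 in GL261 and 464 and 614 in LLC. The neutrophil receptors Cxcr2 (40.8 and 45.9 against 65.6 and 45.5) and Csf3r (64.5 and 60.4 against 75.8 and 81.5) were not called. The chemokines that bind Cxcr2 were higher in LLC as well: Cxcl1 had 1.9 and 5.6 against 522 and 390.4 (-6.69 ± 0.38), Cxcl2 5.69 and 8.95 against 183 and 162 (-4.41 ± 0.26), Cxcl3 1.9 and 2.24 against 45.3 and 42.3 and Cxcl5 4.74 and 15.7 against 159 and 145. Ccl2, which draws monocytes, had 45.5 and 80.6 normalized reads in the GL261 pools and 1862 and 1623 in the LLC pools (-4.82 ± 0.23). Csf1, the macrophage growth factor, had 399 and 376 against 2804 and 2554 (-2.78 ± 0.07). Chemokines that draw T cells stood on the other side, Cxcl9 at 506 and 473 against 12.7 and 15.9 (5.01 ± 0.17) and Cxcl10 at 1032 and 840.5 normalized reads in the GL261 pools and 15.8 and 24.3 in the LLC pools (5.50 ± 0.21). Il34, a further ligand of the receptor CSF1R, was higher in LLC (55 and 76.1 against 190.7 and 207, -1.60 ± 0.18), and Il15, which sustains killer cells, higher in GL261 (116 and 80.6 against 22.4 and 29.6, 1.87 ± 0.25). Over the chemokine list, 9 genes were higher and 12 lower in GL261 of 27 tested.

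Complement genes were higher in GL261 for 10 of 25 members and lower for 2. C4b was at 1928 and 1896 against 129 and 249 (3.41 ± 0.25), Cfb, the alternative pathway protease, at 514 and 577 against 36.1 and 58.2 (3.54 ± 0.21), and Serping1, which inhibits the classical pathway, at 626 and 616 against 79.3 and 55. Of the negative regulators of immunity that the study compiled from Gene Ontology, 26 were higher and 10 lower in GL261 of 91 tested, beside 17.8% and 12.5% of all genes. The median log2 fold change of this list was 0.14. Its members higher in GL261 included Nlrc5 (4.19 ± 0.07) and Irf1 (1.95 ± 0.07). Il1rl1, the receptor of interleukin 33, was on this list and higher in LLC (20.9 and 17.9 against 347 and 349, -4.10 ± 0.16). The kinase Jak3 was higher in LLC too (85.3 and 95.1 against 445 and 388).

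**Figure D5:**
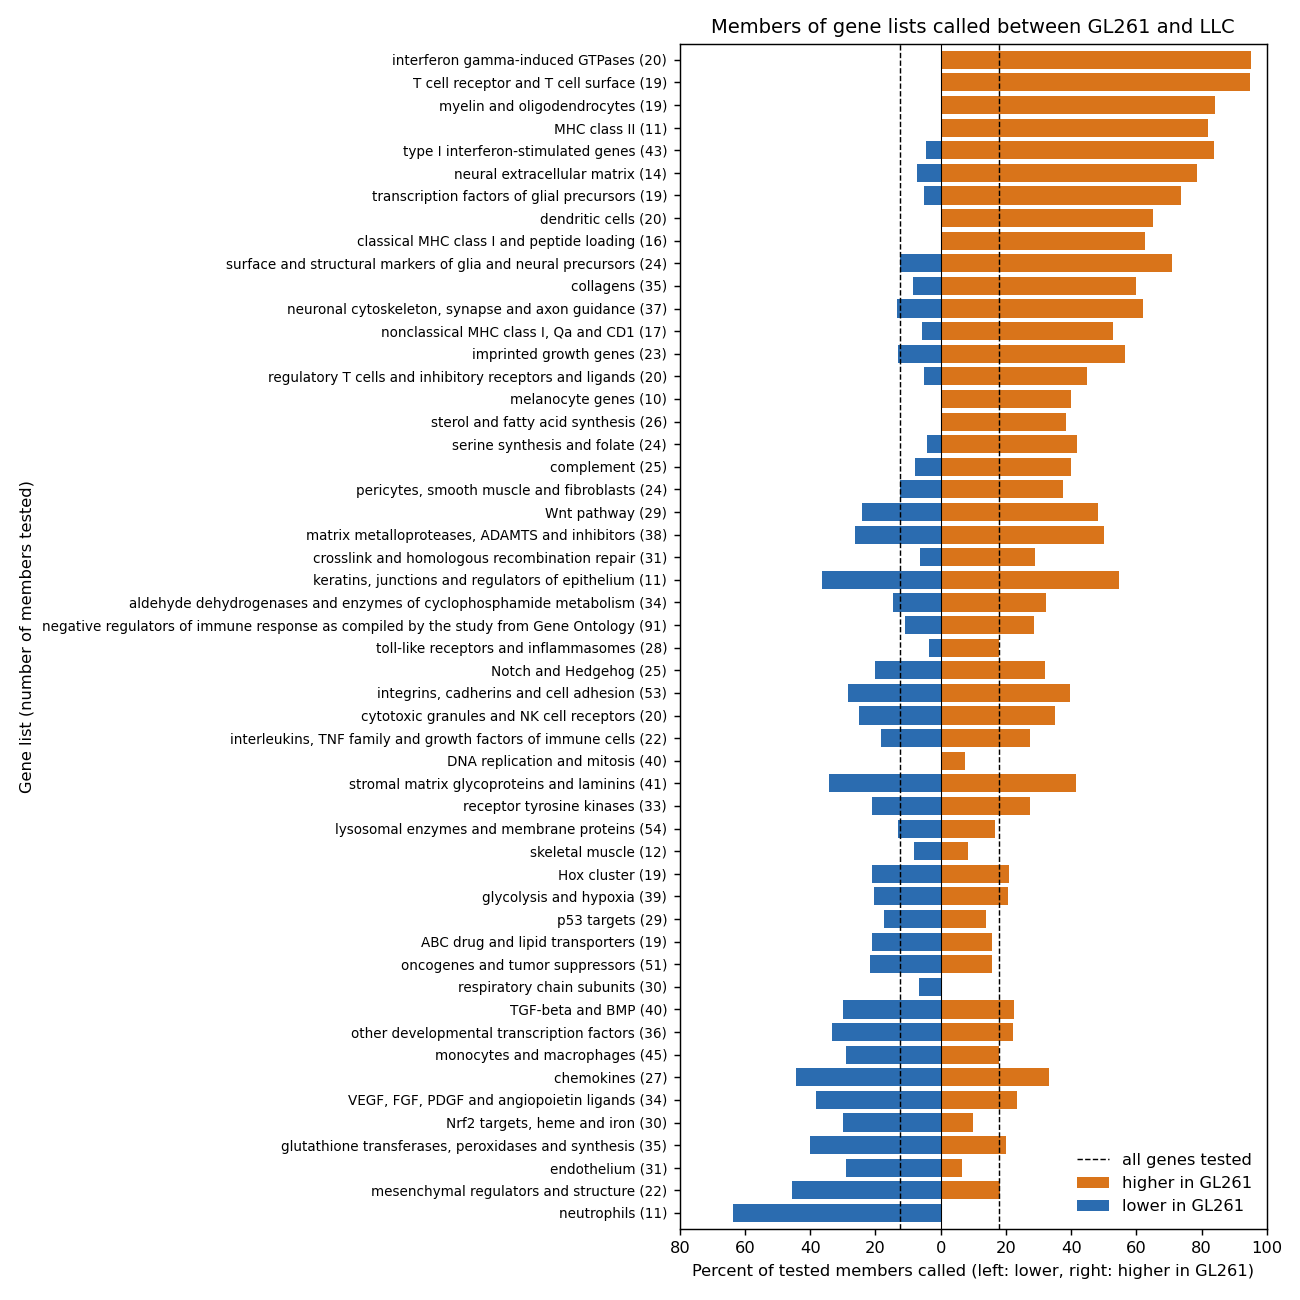
Share of tested members called higher in GL261 (orange, to the right) and lower in GL261 (blue, to the left) for gene lists with at least 10 tested members, with the number tested beside each name. Dashed lines mark the shares over all genes tested, 17.8% and 12.5%; GTPase, T cell, myelin, interferon and class II lists lie far beyond the first line and neutrophil, mesenchymal and glutathione lists beyond the second.

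Blood vessel genes were lower in GL261 more often than higher. Of 31 endothelial genes, 2 were higher and 9 lower in GL261, with a median log2 fold change of -0.51. The markers Pecam1, Cdh5 and Kdr summed to between 754 and 765 in GL261 and 1149 and 1375 in LLC. Pecam1 (CD31) had 326 and 320.1 normalized reads in the GL261 pools and 606 and 509 in the LLC pools and was not called (-0.78 ± 0.09). Cdh5, the cadherin of endothelial junctions, had 287 and 286 against 654 and 544 (-1.05 ± 0.10) and Kdr, the main receptor for VEGFA, had 140.3 and 159 against 114 and 96.3 and was not called. Vegfa itself was higher in GL261, with 3746 and 3426 normalized reads in the GL261 pools and 1037 and 807 in the LLC pools, a log2 fold change of 1.97 ± 0.11. Lyve1, of lymphatic vessels and some macrophages, was lower in GL261 (72.1 and 64.9 against 630.5 and 891, -3.43 ± 0.16). Apln, a ligand made by sprouting endothelium and hypoxic cells, was also lower there (77.7 and 102 against 1403 and 1022, -3.74 ± 0.17). Angiogenic factors in general were lower in GL261 for 13 and higher for 8 of 34. Ligands of the EGF receptor split between the tumors. Ereg (epiregulin) was at 2.84 and 5.6 against 173 and 179.8 and Areg (amphiregulin) at 1.9 and 3.36 against 93 and 88.9, both higher in LLC. Tgfa was higher in GL261 (629 and 626 against 31 and 27.5, log2 fold change 4.38 ± 0.13).

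Of 33 receptor kinase genes, 9 were higher (27.3%) and 7 lower (21.2%) in GL261, beside 17.8% and 12.5% of all genes tested. Fgfr1, a fibroblast growth factor receptor, had 250.3 and 293 normalized reads in the GL261 pools and 4621 and 4283 in the LLC pools (log2 fold change -4.03 ± 0.09). The ephrin receptor Epha2 had 18 and 25.7 against 1414 and 1284 (-5.90 ± 0.17). Egfr, the receptor of the ligands above, had 49.3 and 56 against 504 and 456 (-3.17 ± 0.12), so that these genes were higher in LLC. Erbb3, a neuregulin receptor of glia, had 2421 and 2509 against 42.2 and 49.7 (5.72 ± 0.10) and Kit, the receptor of stem cell factor, 1281 and 1294 against 139.8 and 125 (3.27 ± 0.08), each higher in GL261. The Kit ligand Kitl was lower in GL261 (383 and 378 against 1899.6 and 1995, -2.35 ± 0.06). Of the Wnt list, 14 genes were higher and 7 lower of 29 tested. Axin2, a common target of Wnt signaling, had 251 and 237 against 10.7 and 9.52 (4.47 ± 0.19), Fzd3, a receptor, had 375 and 345 against 1.02 and 2.12, and Apcdd1, an inhibitor, had 19 and 26.9 against 1682 and 1856 (-6.23 ± 0.16). In the TGF-beta list 9 genes were higher (22.5%) and 12 lower (30.0%) of 40, beside the same shares of all genes, 17.8% and 12.5%. The coreceptor Tgfbr3 was lower in GL261 (71.1 and 69.4 against 2405 and 2303, -5.05 ± 0.07). The latency protein Ltbp1 (192.5 and 257 against 2430.5 and 2352) and the signal transducer Smad3 (175 and 185 against 776 and 842) were lower as well. Notch2 was lower in GL261 (557 and 573 against 2837 and 2829.9, -2.32 ± 0.05), whereas Notch1 (991 and 921 against 394 and 347) and the ligand Dll3 (239 and 279 against 3.05 and 3.17) were higher.

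Several genes with known roles in tumors stood at very different levels. Cdkn2a, whose products restrain the RB and p53 pathways, had 885 and 980.4 normalized reads in the GL261 pools and 1.02 and 2.12 in the LLC pools, a log2 fold change of 8.54 ± 0.25, and 1.53 and 0 normalized reads in B16F10. Its neighbor Cdkn2b had 75.8 and 79.5 against 6.1 and 9.52. Myc had 1215 and 1265 normalized reads in the GL261 pools and 5911 and 4965 in the LLC pools (-2.13 ± 0.09), lower in GL261. Ccnd3 was higher in GL261 (3335 and 3265 against 609.6 and 592, 2.46 ± 0.06), and Cdk6, the kinase it binds, was lower (57.8 and 60.4 against 396 and 391, -2.71 ± 0.11). Hmga2, a chromatin protein of embryonic cells, was lower (1154 and 1328 against 4502 and 4043), and Lin28b had 0 reads in GL261 against 37.1 and 54 in LLC. Trp53 (868 and 912 against 1617 and 1597) did not pass the fold threshold. Few genes of cell division were called: 3 of 40 were higher (Cdc20, Plk1, Cenpa), none lower, and Mki67 had 3966 and 3662 against 2721 and 2992 with a log2 fold change of 0.42 ± 0.07. Of 31 DNA repair genes 9 were higher and 2 lower. The lower ones were Fanca, of the Fanconi anemia core complex (169.7 and 160.04 against 1341 and 1280.1, -2.98 ± 0.07), and the checkpoint kinase Atr (349.9 and 325 against 715 and 673, -1.04 ± 0.07).

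Imprinted genes held some of the differences with most reads. H19, a maternally expressed RNA, had 32784 and 26459 normalized reads in the GL261 pools and 603 and 562 in the LLC pools, which made it one of the 5 genes with most reads in GL261, and a log2 fold change of 5.66 ± 0.10. Igf2, its paternally expressed neighbor, had 491 and 455 against 15.3 and 23.3 (4.58 ± 0.21). Plagl1, a zinc finger factor, had 3527 and 2712 against 2.03 and 5.29 (9.47 ± 0.32). Lower in GL261 were Igf2r, which clears IGF2 (136 and 163 against 2245 and 2239, -3.90 ± 0.09), Slc38a4 and Peg10 (279.7 and 279 against 1055 and 1038). In all, 13 of 23 tested imprinted genes were higher and 3 lower. HOX genes, which record position along the body axis, were low and split 4 to 4 among 19 tested (21.1% each way). Over all genes tested 17.8% were higher and 12.5% lower. The largest HOX differences were Hoxa11 (0 and 1.12 against 66.6 and 79.3) and Hoxd10 (1.9 and 2.24 against 89.5 and 92), both higher in LLC. Among other patterning factors, Runx2, the bone lineage factor, was higher in LLC (72.1 and 75 against 684 and 642, -3.16 ± 0.10). Dlx2 (0 and 2.24 against 135 and 117) and Foxf2 (0 and 1.12 against 113 and 118) were near 0 in GL261. Alx1 (236 and 216 against 1.02 and 0) and the hindlimb and lung factor Tbx4 (141 and 121 against 3.05 and 4.23, 4.84 ± 0.26) were higher in GL261.

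Enzymes that handle electrophiles bear on cyclophosphamide, which is detoxified by aldehyde dehydrogenases and glutathione conjugation. Glutathione genes were lower in GL261 for 14 of 35 tested members and higher for 7, with a median log2 fold change of -0.85. Gstm1, a mu class transferase, had 24.7 and 34.7 normalized reads in the GL261 pools and 449 and 347 in the LLC pools (-3.71 ± 0.21). Gsta4, of the alpha class, had 13.3 and 10.1 against 148 and 154 (-3.60 ± 0.22). Mgst3, a microsomal enzyme, had 11.4 and 13.4 against 398 and 394 (-4.89 ± 0.17). Gstp1, of the pi class, had 105 and 94 against 364 and 327 (-1.78 ± 0.12). Members of these classes are similar in sequence, so their reads may be shared. Gclm, the modifier subunit of the enzyme that limits glutathione synthesis, had 174 and 165 against 432 and 410.5 (-1.31 ± 0.09). Higher in GL261 was Gpx7, a peroxidase of the endoplasmic reticulum (378 and 321 against 6.1 and 5.29, 5.71 ± 0.21). Against the melanoma, GL261 was called lower than B16F10 for 17 and LLC for 15 of 39.

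Nfe2l2, the factor that induces antioxidant genes, had 393 and 374 normalized reads in the GL261 pools and 1162 and 1075 in the LLC pools (-1.54 ± 0.07), and its target Nqo1 had 6.64 and 11.2 against 60.5 and 43.4 (-2.44 ± 0.33). Hmox1, Srxn1 and the ferritin heavy chain Fth1 were lower in GL261 as well, at log2 fold changes of -1.42 ± 0.12, -1.32 ± 0.10 and -1.77 ± 0.10, while Slc7a11, the cystine importer, was higher (160.2 and 139.9 against 37.1 and 21.2, 2.37 ± 0.27). Of this list 9 of 30 were lower and 3 higher. The antioxidant sequence TGACNNNGC on either strand was found before the start of 6 of 27 genes of this list (22.2%) and 8 of 37 glutathione genes (21.6%). The share was 14.1% of the 9437 tested genes with a promoter entry and 11.5% of all genes with an entry. In the list of aldehyde dehydrogenases and enzymes of cyclophosphamide metabolism, 11 of 34 tested members were higher (32.4%) and 5 lower (14.7%) in GL261. Over all genes tested the shares were 17.8% and 12.5%. Aldh1a1, which oxidizes aldophosphamide, was low in both tumors (27.5 and 24.6 against 1.02 and 4.23). It was called higher in GL261 (3.06 ± 0.47), a call that was lost under some alternatives. Aldh2 was lower in GL261 (448 and 481 against 1996 and 1857, -2.05 ± 0.07) and the one-carbon enzyme Aldh1l2 higher (1983 and 2056 against 301 and 269.8, 2.82 ± 0.07). The drug transporters Abcb1a (10.4 and 6.71 against 61 and 63.5), Abcb1b and Abcc1 (448 and 516 against 1332 and 1119) were lower and Abcg2 higher (227 and 224 against 40.2 and 26.4, 2.75 ± 0.21) in GL261.

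Glycolysis and hypoxia genes split 8 to 8 among 39 tested (20.5% each way), beside 17.8% higher and 12.5% lower of all genes tested. Adm (adrenomedullin), which hypoxia induces, was lower in GL261 at 67.3 and 75 normalized reads in the GL261 pools and 1878 and 1144 in the LLC pools (log2 fold change -4.35 ± 0.20). So were Ndrg1 (117 and 161 against 2792 and 2099.9, -4.13 ± 0.17) and the oxygen-sensing hydroxylase Egln3 (365 and 395 against 5130.4 and 3637, -3.50 ± 0.14). The carbonic anhydrases Car9 (587 and 530.5 against 153 and 124, 2.01 ± 0.12) and Car12 (119 and 138 against 8.64 and 7.41) and Vegfa, which hypoxia also induces, were higher in GL261. For these hypoxia genes the LLC pools themselves lay apart, with the deeper pool above the shallower one. Aldoc and Ldhb, isoenzymes of glycolysis, were at 663 and 586 against 16.3 and 13.8 and 568 and 598 against 16.3 and 14.8. The hypoxia response sequence ACGTG was found before the start of 20 of 38 genes of this list (52.6%). The share was 24.7% of the 9437 tested genes with a promoter entry and 18.5% of all genes with an entry. Sterol and fatty acid synthesis genes were higher in GL261 for 10 of 26 and lower for none, with a median log2 fold change of 0.84. Among them, Cyp51 had 1787 and 1759 against 483 and 528 (1.81 ± 0.06) and Dhcr7 597 and 602 against 141 and 182 (1.90 ± 0.12). GL261 was called higher than B16F10 for none of the 27 sterol and lipid genes and LLC lower for 17. Serine and stress genes were higher for 10 of 24, such as Trib3 (673 and 713 against 162 and 152, 2.13 ± 0.08). Cbs, of cysteine synthesis, had 0 reads in LLC and was at least 68.3-fold higher in GL261. Lysosomal genes were called at nearly the shares over all genes, 9 higher (16.7%) and 7 lower of 54, beside 17.8% and 12.5% of all genes tested. Among these, the cathepsins Ctsh (529 and 616 against 79.3 and 97.3, 2.69 ± 0.13) and Ctsl (1372 and 1475 against 6598 and 6310.4, -2.18 ± 0.06) went opposite ways. Of 30 respiratory chain genes 0 were higher and 2 lower, with a median of -0.03.

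Markers of tissue next to the implants were checked in each pool. Skeletal muscle markers (Ckm, Acta1, Myh4) summed to between 149.8 and 421 in GL261, 71.2 and 243 in LLC and 1953 and 2741 in B16F10, with the shallower pool the higher one in both GL261 and LLC. Keratinocyte markers stayed between 0.948 and 1.12 in GL261 and 4.23 and 5.59 in LLC. Melanocyte markers summed to between 255 and 291 in GL261 and 204 and 294 in LLC, against 159915 and 175159.8 in B16F10, the melanoma. The hemoglobin genes Hbb-b1 and Hba-a1 were listed at 0 in all pools, and Alas2, of red cell heme synthesis, was at 8.53 and 17.9 against 65.6 and 55. Alas2 was between 984 and 3538 in the B16F10 pools. The part of these cells in the differences above was not tested.

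Set beside B16F10, the genes that separate GL261 from LLC were partly particular to each. In a fit of the 6 untreated pools (13697 genes tested), GL261 was higher than B16F10 for 20.2% of genes and lower for 14.9%, and LLC was higher than B16F10 for 17.0% and lower for 17.4%. Of the 2344 genes higher in GL261 than LLC, 1305 were also higher in GL261 than in B16F10 and 132 lower, while LLC was higher than B16F10 for 139 and lower for 918. Of the 1653 genes lower in GL261, LLC was higher than B16F10 for 940 and lower for 65, while GL261 was higher for 235 and lower for 467. The comparisons share pools, so these counts describe the same libraries. Sox10 (3885 and 4166 in B16F10), S100b (695 and 796) and Sparcl1 (2590.3 and 2905) were genes that GL261 and the melanoma had in common and LLC lacked or had less of, while Olig1 (1.53 and 1.04), Olig2 (0.765 and 0) and Sox2 (0.765 and 1.04) were near 0 in both LLC and B16F10.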

How the data were processed

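The deposited table of this comparison lists, for 23284 gene symbols, the mean normalized read signal of each tumor type, which the authors made with TopHat 2.0.13 (mm9 build), counts over RefSeq genes and DESeq size factors. Its fold changes and p-values between tumors were not used. Each group mean is a sum of 2 whole read counts divided by size factors, so the reads of both pools were recovered from it: 100% of genes had a single solution, and tables sharing a group gave the same reads for all 23284 genes. Which labelled pool is the deeper is not known.

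Reads were scaled by trimmed mean of M values and tested on log2(normalized reads + 1) with limma 3.58.1 (R 4.3.3, trended variance, two-sided), keeping genes that reach 10 reads (scaled to the median depth) in 2 or more libraries and total 15 or more. On simulated reads, changes were placed only in genes well read in every pool, and all genes had a single dispersion of 0.01. There no unchanged gene was called, and 50%, 98%, 100% and 100% of genes changed by 2, 3, 4 and 8-fold were. A 2-fold change lies at the threshold itself. Changed genes near 0 in a tumor and genes of wider spread were not simulated, so these rates do not cover them. A gene with 0 reads in a tumor is given as a bound against 3 reads over its 2 pools. Ratios with 1 to 3 reads carry 95% intervals, which like the bounds cover counting error only. Medians of lists were identical with such genes at their bounds. Shown genes were the 15 largest and 15 smallest called log2 fold changes with at least 100 normalized reads in the higher tumor, up to 6 called and 4 most abundant members of each of 59 lists, members of lists of up to 16 genes, the cell type markers, and the 5 most abundant genes of each tumor. A further 78 genes were named after their values were seen. Some genes under this rule are not reported here. The comparison, members and lists were chosen with earlier results of these data known. Promoters were RefSeq entries (GRCm38.p6) for 27025 genes, matched by symbol to 9437 of the 13199 tested. Alternatives were other scalings, pseudocounts, filters, precision weights, thresholds, library sets and leaving out each pool.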

Additional observations from a re-analysis of the deposited data

How the results depend on the processing

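Genes higher in GL261 numbered 2344, and between 2244 and 2710 over the alternatives of scaling, pseudocount, filter, precision weights, threshold and libraries in the fit. Genes lower in GL261 numbered 1653, and between 1426 and 1904. Leaving out each pool gave 1350 to 2545 genes higher in GL261 and 1447 to 1748 genes lower in GL261, with 11959 to 12883 genes tested. The low counts came without a GL261 pool, where 1352 and 1356 of the 2344 genes could still be tested and 1297 and 1309 were called; none reversed. Scaling by total reads moved the median log2 fold change by 0.12 and gave 2614 higher and 1426 lower. More members higher than lower were found in 38 of 59 lists, in 38 without the filter or by the median of ratios and in 41 by total reads.

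With genes of at least 100 normalized reads in both tumors, an alternative chosen after seeing the data, the median log2 fold change by chromosome went from 0.85 to 0.55 on chromosome X, from 0.56 to 0.40 on chromosome 15 and from -0.46 to -0.54 on chromosome 17.

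No called gene named in the text reversed where it could be tested. Without the deeper or the shallower GL261 pool 78 and 77 named genes could not be tested, and without either LLC pool 26. Calls were lost for 3 named genes by total reads (Atr, Cdh5, Krt8), for Cdh1 by the median of ratios, and for 11 when the 6 untreated libraries shared a spread (Alas2, Aldh1a1, Cd4, Cdh1, Dpt, Foxp3, Gzma, Gzmc, Klrd1, Krt8, Nkg7). Of these 11, 7 were also lost with 12 libraries (Alas2, Aldh1a1, Foxp3, Gzmc, Klrd1, Krt8, Nkg7). A pseudocount of 0.5 lost 5 calls (Alas2, Aldh1a1, Cd4, Cdh1, Twist2), no filter lost 7 (the same 5, Klrd1 and Klre1) and a pseudocount of 10 lost that of Klre1. Calls were gained for Pdgfra and Tubb3 by total reads, for Klrb1c and Prf1 at an adjusted p under 0.05, and for Dcn, Myh4, Tubb3, Pdgfra and Ckm with 1 pool or another left out. Without the deeper GL261 pool the calls of Abcb1b, Krt8, Plk1 and Vim were lost, with log2 fold changes of -0.96, -0.83, 0.96 and -1.38. Without the shallower GL261 pool the call of Atr was lost, without the deeper LLC pool those of Atr, Cdh1 and Cdh5, and without the shallower LLC pool that of Plk1. Depth limits the low genes: 17706 genes had reads and 13199 could be tested. No paired analysis was possible because the tables do not say which pool carries which replicate number.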

Other observations

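Gene families outside the lists are given here as values. They were chosen after their values were seen, and no explanation was weighed. Of the 6 apolipoprotein L genes tested, which lie on chromosome 15 and resemble each other in sequence, all were higher in GL261. Apol6 had 466 and 454 normalized reads in the GL261 pools and 2.03 and 6.35 in the LLC pools, and Apol9a had 209 and 213 against 4.07 and 5.29. In B16F10, Apol6 was at 4.59 and 8.3.

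On chromosome X, the lymphocyte-regulated Xlr genes were higher in GL261 for 5 of 6 tested and lower for none. Xlr3a had 107 and 109.7 normalized reads in the GL261 pools and 0 in the LLC pools and was also found in B16F10 (80.3 and 96.5). Of 5 tested Mage genes, the family of melanoma antigens, 5 were higher in GL261. Maged2 had 881 and 934 against 17.3 and 26.4, Mageh1 had 277 and 265 against 5.59 and 4.23 and Maged1 had 5971 and 6024 against 1228 and 1084. Members of both families are similar in sequence, so their reads may be shared.

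Annexins, proteins that bind membranes in the presence of calcium, went mostly the other way, with 6 of 9 lower in GL261 and 1 higher. Anxa1 had 1209.8 and 1298 normalized reads in the GL261 pools and 7346 and 6724 in the LLC pools (log2 fold change -2.49 ± 0.07). Anxa3 had 96.7 and 119 against 899 and 835 (-3.00 ± 0.11). The exception, Anxa6, had 1426 and 1511 against 171 and 182 (3.05 ± 0.07).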
